A study of Homo sapiens with 21 samples.

Results

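The genes described here carry out the synthesis of sterols and fatty acids in AU565 cells, a human breast cancer line with amplified ERBB2, the gene of the HER2 receptor that the antibody trastuzumab binds. They are 40 of the 16553 genes in the count table, chosen by symbol: 5 regulators of the pathway, 18 enzymes of the sterol branch, 15 enzymes of the fatty acid branch and 2 proteins of cholesterol transport. All 40 were present and all 40 passed the filter on low counts. The lowest level of any of them in any library was 0.0632 CPM, the count scaled to library size. The branches were taken as groups, so their makeup is part of the choice and not a result.

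The study compared AU565 cells, labelled wild type and of epithelial type, as flat monolayers and as 3-dimensional aggregates grown by liquid overlay with 5% matrigel. There were 7 groups of 3 libraries. The primed and treated aggregates had trastuzumab at 20 µg/ml for 24 h as monolayers, 96 h as aggregates and trastuzumab at 50 µg/ml for a further 24 h. Treated aggregates had 96 h of aggregate culture and then 50 µg/ml for 24 h, with no exposure beforehand. Primed aggregates had 20 µg/ml for 24 h as monolayers and then 96 h as aggregates, and untreated aggregates had the 96 h alone. Primed monolayers had 20 µg/ml for 24 h and 96 h of further culture, acutely exposed monolayers had 20 µg/ml for 24 h alone, and untreated monolayers had no antibody. All cells grew in RPMI medium with fetal bovine serum, an outside source of cholesterol and fatty acids, and it was the same line in every group. Comparisons below with the same untreated group share its libraries. The aggregates given 50 µg/ml were 24 h older at harvest than those that were not. Whether the 3 replicates of a group were grown separately is not in the labels, and the p-values below measure the spread between these libraries only, which may be technical.

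Cells make cholesterol from acetyl-CoA through mevalonate, isoprenoids, squalene and lanosterol, and they make fatty acids from the same acetyl-CoA through malonyl-CoA. Genes of both branches are switched on by the SREBP transcription factors, which are encoded by SREBF1 and SREBF2 and held in the endoplasmic reticulum by SCAP and the INSIG proteins while sterols are plentiful. Falling sterol lets SCAP carry the factors to the Golgi for cleavage. SREBF2 products act mainly on the sterol branch and SREBF1 products mainly on the fatty acid branch, and growth factor signalling through receptors such as HER2 is known to raise lipogenesis in breast cancer cells.

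Library totals ran between 15005070 and 26921113 counts. All 10 epithelial marker genes were in the table, with summed levels between 14033 and 21859 CPM. The share of counts in the mitochondrial rRNA genes was 2.13 to 2.36% in primed and treated aggregates, 1.52 to 1.71% in treated aggregates, 2.5 to 2.77% in primed and untreated aggregates and 0.793 to 1.14% in monolayers. Some libraries held transcripts of other tissues. TYRP1, a melanocyte enzyme, was at 5.7 to 33.1 CPM in the 12 libraries of the primed and untreated aggregates and the acutely exposed and untreated monolayers, and at most 0.256 CPM in the other 9. MYH7, a muscle myosin, was above 10 CPM in 6 libraries: untreated aggregates 1 and 2, acutely exposed monolayers 2 and 3, and untreated monolayers 1 and 2. The 9 libraries held other transcripts instead. SNAP25, a neuronal protein of synaptic vesicle fusion, was at 4.36 to 17.3 CPM in the 9 and at most 0.507 CPM in the 12. UMOD, the kidney protein uromodulin, was at 0.825 to 22.8 CPM in the 9 and at most 0.0588 CPM in the 12. FGB, a fibrinogen chain made by hepatocytes, did not follow the division between the 9 and the 12. Within the 9 it was at 154 to 183 CPM in treated aggregates and 4.11 to 5.17 CPM in primed monolayers. Within the 12 it ran from 27.9 to 145 CPM. A comparison between the 12 and the 9 libraries carries this division with it, and treatment and library set cannot be told apart there. Adipocyte markers, which would bring lipid genes of their own, were in the table for 2 of 8 genes, with sums of 2.15 to 6.4 CPM. In RNA from whole cultures, fewer cells of one kind and less RNA per cell cannot be told apart.

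As a group, sterol enzymes were lower in every aggregate library than in every monolayer library. The mean log2 level of the 18 sterol genes relative to untreated monolayers was -0.765 ± 0.036 in primed and treated aggregates, -0.681 ± 0.025 in treated aggregates, -0.62 ± 0.014 in primed aggregates and -0.578 ± 0.029 in untreated aggregates (SD, n = 3 libraries each). It was -0.042 ± 0.025 in primed monolayers and -0.241 ± 0.01 in acutely exposed monolayers, with untreated monolayers at 0 by construction and an SD of 0.044. The acutely exposed monolayers therefore lay below both other monolayer groups, with no overlap of their libraries. The mean of the 15 fatty acid genes was -0.763 ± 0.09, -0.539 ± 0.075, -0.272 ± 0.054 and -0.476 ± 0.053 in the primed and treated, treated, primed and untreated aggregates, in that order. It was -0.454 ± 0.055 in primed monolayers and -0.085 ± 0.019 in acutely exposed monolayers, against an SD of 0.075 in untreated monolayers. Part of that order came from FADS1 and FADS2, which were at or below 5.95 CPM in all libraries. With the other 13 fatty acid genes, chosen after the values were seen, the means were -0.452 ± 0.024, -0.348 ± 0.014, -0.427 ± 0.035 and -0.492 ± 0.017 in the 4 aggregate groups in the same order. Without those genes, primed monolayers were at -0.021 ± 0.03 and acutely exposed monolayers at -0.043 ± 0.034, against an SD of 0.016 in untreated monolayers.

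**Figure D1:**
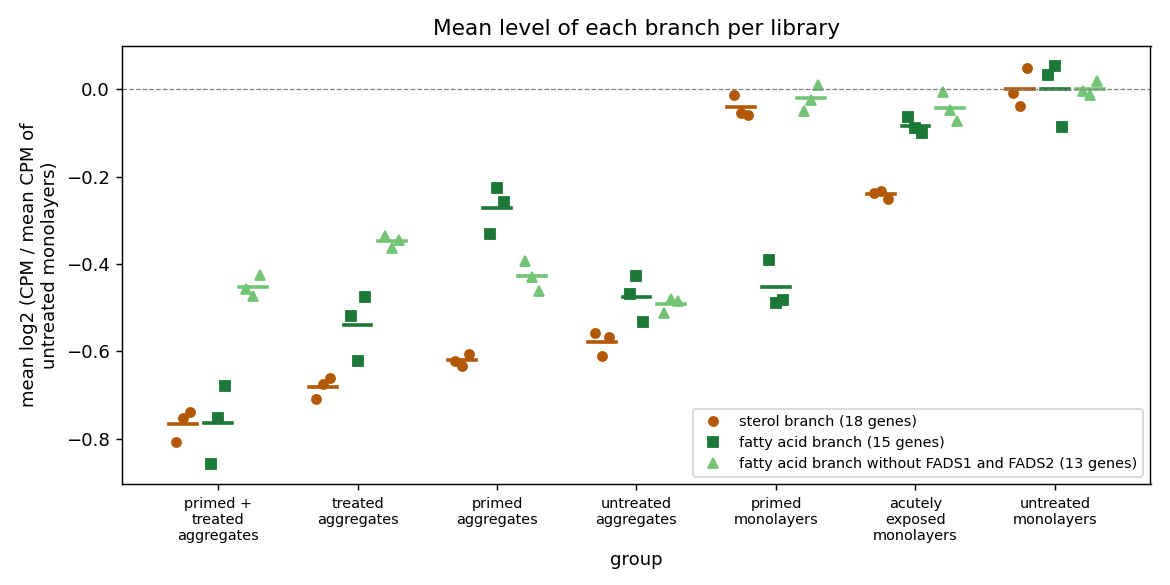
Mean log2 level of the sterol genes and of the fatty acid genes, with and without FADS1 and FADS2, relative to untreated monolayers, with 1 point per library and a bar at each group mean. The sterol points of all aggregate libraries lie at or below -0.558, and those of all monolayer libraries at or above -0.252.

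Growth as aggregates without antibody was accompanied by lower expression of most of the pathway. Of 18 sterol genes, 15 were lower and 1 was higher in untreated aggregates than in untreated monolayers, and of 15 fatty acid genes, 11 were lower and 2 higher. Counting regulators and transport genes, 30 of 40 were lower and 3 higher, beside 31.1% of all 15969 genes tested lower and 32.9% higher, 64.1% in all. The median log2 difference was -0.43 for the sterol branch and -0.69 for the fatty acid branch. A gene was called when its edgeR adjusted p was under 0.05, and each ± beside a log2 difference is its standard error. The comparison lies within the 12 libraries. Untreated aggregates also had 96 h of culture that untreated monolayers did not have, so culture form and culture time cannot be told apart here. The share of counts in mitochondrial rRNA was 2.5 to 2.75% in untreated aggregates, against 0.925 to 1.14% in untreated monolayers, and its part in the result was not tested. Without the 6 libraries with MYH7, which left 1 library per group, 28 of the 40 genes were called, and PMVK (0.29) and ACSS2 (0.24) were not.

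**Figure D2:**
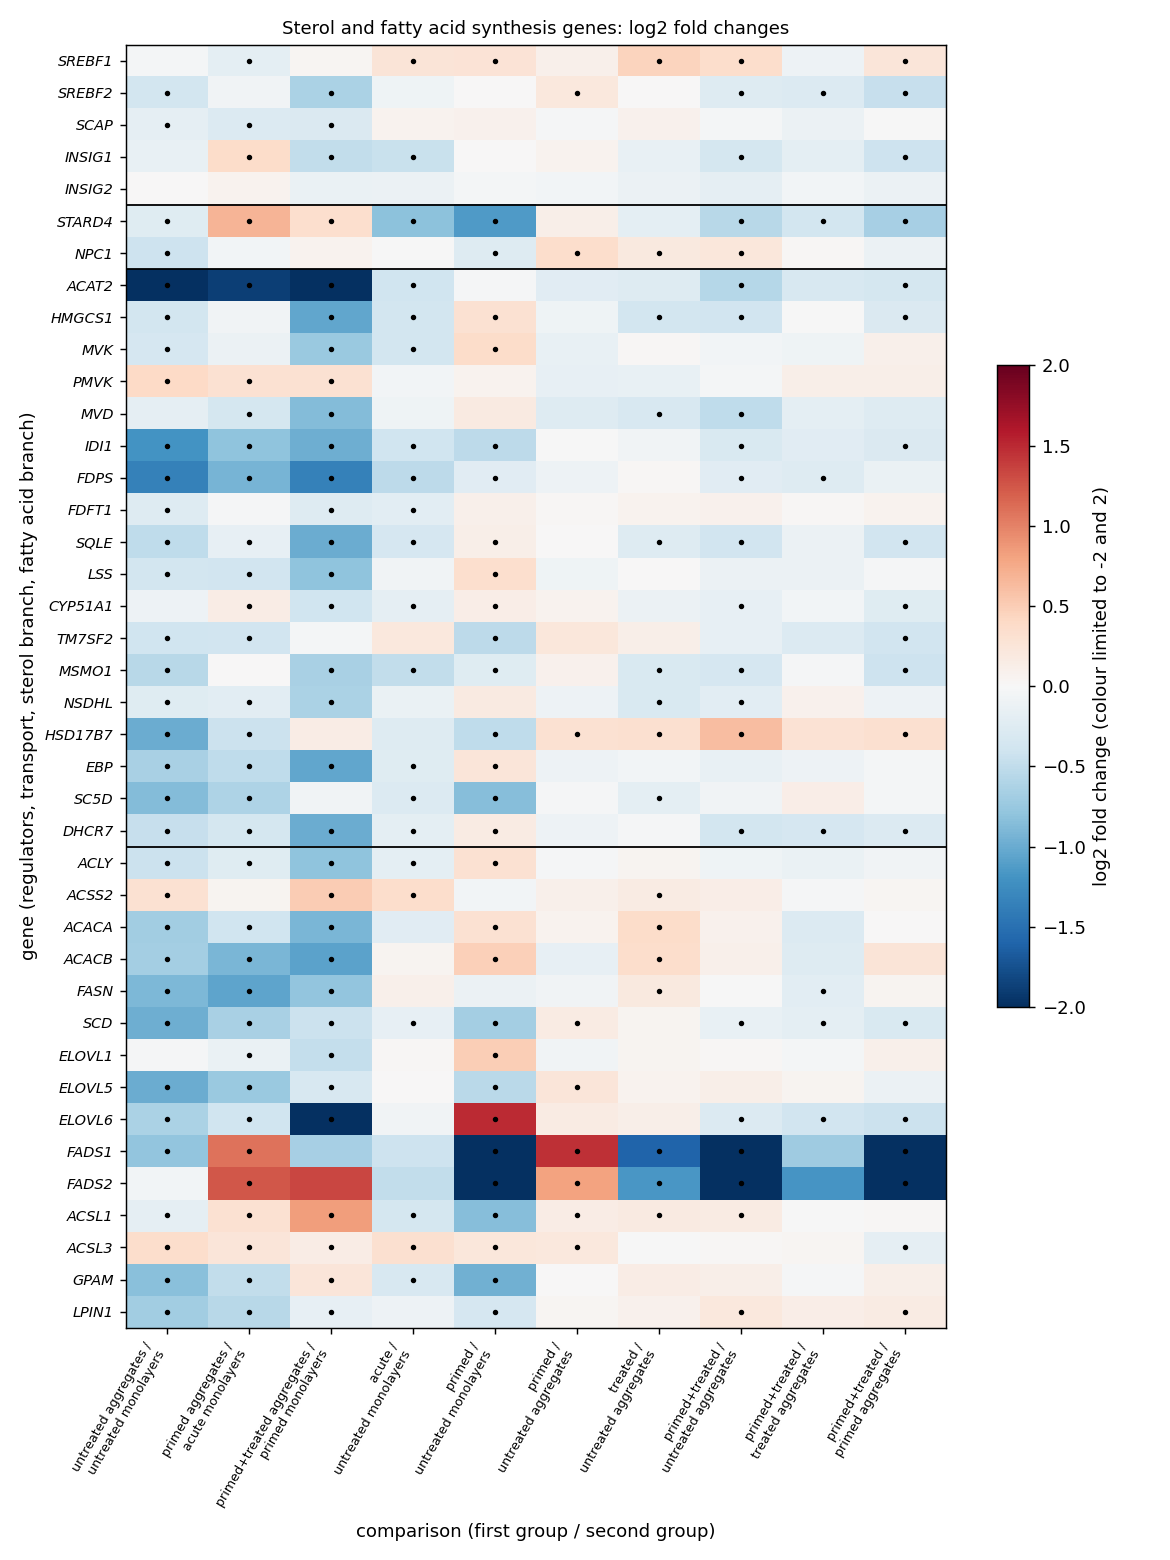
Log2 fold change of the 40 genes, grouped by role down the page, in the 10 pairwise comparisons, with colour limited to -2 and 2 and a dot where the edgeR adjusted p was under 0.05. The 3 columns at the left, aggregates over monolayers, are mostly blue in the sterol branch, with PMVK higher in all 3.

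In the sterol branch, FDPS, the synthase of farnesyl diphosphate, was at 119, 122 and 123 CPM in untreated aggregates, against 316, 291 and 316 CPM in untreated monolayers (log2 difference -1.35 ± 0.048, adjusted p = 2.11e-22). IDI1, which isomerizes isopentenyl diphosphate, was at 33.8, 30.99 and 36.6 CPM in untreated aggregates, against 81.6, 75.7 and 74.9 CPM in untreated monolayers (-1.20 ± 0.082, adjusted p = 2.17e-14). SC5D, a desaturase late in the pathway, was at 38.4, 38.2 and 39.8 CPM in untreated aggregates, against 71.3, 70.5 and 69.4 CPM in untreated monolayers (-0.86 ± 0.076, adjusted p = 6.29e-12). In these 3 genes every untreated aggregate was below every untreated monolayer. SQLE, the squalene epoxidase and a control point of the pathway, was at 130.1, 126 and 137 CPM in untreated aggregates, against 181, 183 and 194 CPM in untreated monolayers (-0.51 ± 0.048, adjusted p = 3.26e-11). HMGCS1, which makes the precursor of mevalonate, differed by -0.36 ± 0.058. The exception was PMVK, the phosphomevalonate kinase, at 62.4, 63.01 and 66.8 CPM in untreated aggregates, against 40.7, 49.4 and 54.6 CPM in untreated monolayers (0.41 ± 0.085, adjusted p = 0.000132). The largest difference was that of ACAT2, the cytosolic thiolase at the start of the branch, at 10.8, 8.88 and 10.7 CPM in untreated aggregates, against 41.3, 41.1 and 41.8 CPM in untreated monolayers (-2.04 ± 0.1, adjusted p = 1.15e-18). ACAT2 (chromosome 6, 159762045 to 159779112, GRCh38.p14) overlaps TCP1, a chaperonin subunit, by 615 bases and SOD2 by 237 bases. TCP1 itself differed by -1.26 ± 0.046, and reads from the shared stretch may have been counted for either gene, so the size of the ACAT2 difference is uncertain. IDI1 (320 bases, with WDR37), MVK (233, with MMAB), SREBF1 (120, with RAI1), NPC1 (25639, with RMC1) and ACACA (16724, with C17orf78) also overlap other coding genes.

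In the fatty acid branch, SCD, the desaturase that makes oleate, was at 858, 833 and 782 CPM in untreated aggregates, against 1579.9, 1622 and 1658 CPM in untreated monolayers (-0.98 ± 0.052, adjusted p = 9.61e-18). FASN, the fatty acid synthase, was at 1633, 1458 and 1567 CPM in untreated aggregates, against 2699.7, 2771 and 3180.5 CPM in untreated monolayers (-0.89 ± 0.06, adjusted p = 5.6e-15). ELOVL5, an elongase of polyunsaturated chains, was at 75.3, 77.5 and 89.4 CPM in untreated aggregates, against 158, 162 and 159.6 CPM in untreated monolayers (-0.99 ± 0.06, adjusted p = 4.46e-16). GPAM, which starts glycerolipid synthesis, was at 31.9, 34.1 and 32.7 CPM in untreated aggregates, against 60.4, 59.4 and 56.2 CPM in untreated monolayers (-0.83 ± 0.071, adjusted p = 2.27e-12). In each, all 3 aggregate libraries were below all 3 monolayer libraries. The 2 genes that were higher both attach an acid to coenzyme A. So does ACSL1, which was called lower (-0.18 ± 0.051, adjusted p = 0.00194). ACSL3, a long-chain acyl-CoA synthetase, was at 165, 170.3 and 171 CPM in untreated aggregates, against 139, 129.9 and 130.3 CPM in untreated monolayers (0.35 ± 0.048, adjusted p = 1.13e-07). ACSS2, which makes acetyl-CoA from acetate, was at 196, 194 and 179 CPM in untreated aggregates, against 156, 151 and 152 CPM in untreated monolayers (0.31 ± 0.058, adjusted p = 1.52e-05).

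Among the regulators, SREBF2 was lower, at 206, 199 and 181 CPM in untreated aggregates, against 243, 240.2 and 269.5 CPM in untreated monolayers (-0.36 ± 0.056, adjusted p = 8.64e-07). SCAP differed by -0.18 ± 0.059 and was also called lower. SREBF1 was at 494, 435 and 399 CPM in untreated aggregates, against 424, 449 and 495 CPM in untreated monolayers, and the groups overlapped (-0.04 ± 0.066, adjusted p = 0.586). INSIG1, itself a target of the SREBPs, was at 51.2, 50.8 and 49.2 CPM in untreated aggregates, against 59.5, 54.5 and 53.5 CPM in untreated monolayers, with every untreated aggregate below every untreated monolayer but no call (-0.15 ± 0.073, adjusted p = 0.0794). INSIG2 was not called in any of the 10 pairwise comparisons and stayed between 31.6 and 42.9 CPM in all libraries. Both transport genes were lower, with a difference of -0.25 ± 0.09 for STARD4, a cytosolic sterol carrier, and of -0.41 ± 0.054 for NPC1, which exports cholesterol from lysosomes.

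Lists of neighbouring pathways were counted beside 32.9% of all genes higher and 31.1% lower, 64.1% in all. Of 10 lipid storage genes, 4 were higher and 2 lower, a share near that background. PLIN2, a coat protein of lipid droplets, differed by 1.78 ± 0.14, adjusted p = 1.59e-13, and HILPDA, a droplet protein known for its induction by low oxygen, by 2.35 ± 0.1, adjusted p = 2.22e-13. Of 10 genes that use isoprenoids, 6 were lower and 1 higher, led by COQ2 of ubiquinone synthesis (-1.36 ± 0.11, adjusted p = 1.8e-12) and NUS1 of dolichol synthesis (-0.51 ± 0.064, adjusted p = 1.44e-08). Of 10 genes that feed NADPH or citrate to lipogenesis or regulate it, 7 were lower and 2 higher, among them IDH1, a cytosolic isocitrate dehydrogenase (-0.50 ± 0.051), and PGD of the pentose phosphate pathway (0.47 ± 0.047). The list of LXR targets and sterol handling split evenly, with 5 higher, such as the sterol exporter ABCG1 (1.30 ± 0.095, adjusted p = 5.11e-14), and 5 lower, such as the cholesterol esterifying enzyme SOAT1 (-1.37 ± 0.07, adjusted p = 3.03e-18).

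**Figure D3:**
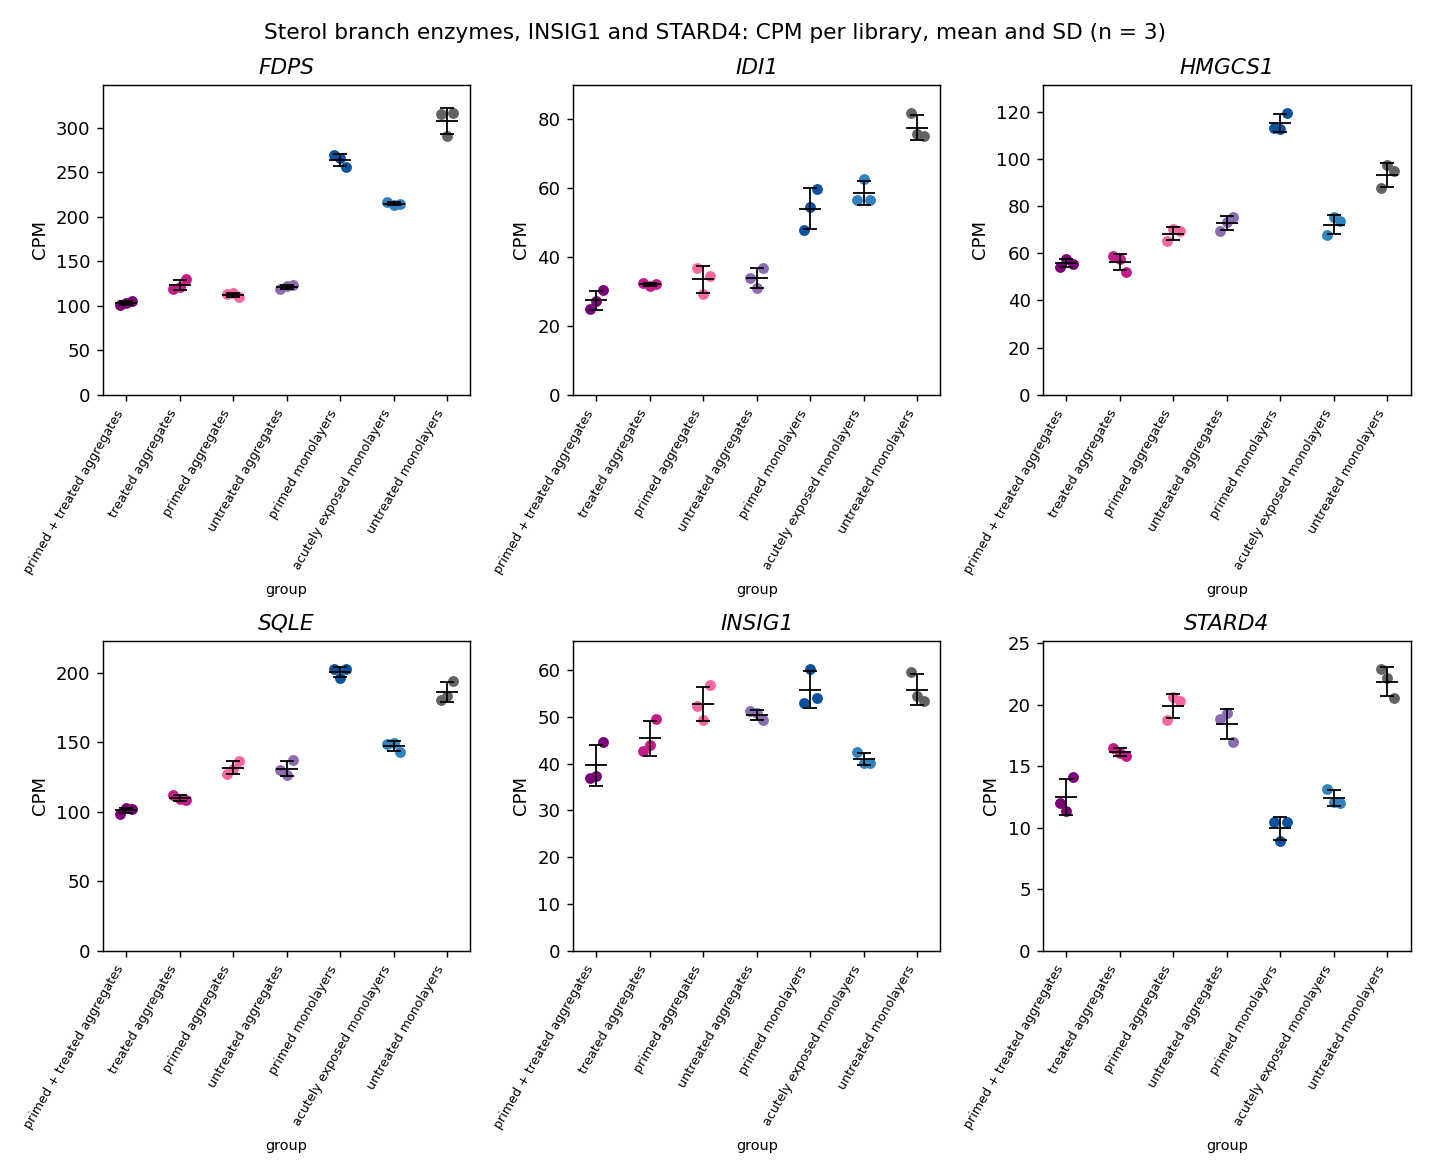
Levels in CPM of FDPS, IDI1, HMGCS1, SQLE, INSIG1 and STARD4 in the 21 libraries, with 1 point per library and the mean and SD of each group (n = 3), from primed and treated aggregates at the left to untreated monolayers at the right. FDPS shows the aggregate groups between 101 and 129.6 CPM and the monolayers between 213 and 316 CPM.

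The promoters of 36 of the 40 genes were matched in RefSeq on GRCh38.p14, each as 250 bases before to 50 after the annotated start. They were searched on both strands for the sterol response element TCACNCCAC, the E-box CACGTG, the CCAAT box, which NF-Y binds as a known partner of the SREBPs, and the GC box GGGCGG. None of these motifs contains another. The sterol response element in this strict form was in 1 of 36 promoters, that of SREBF2, and in 1.13% of 35116 promoters in all. A CCAAT box was in 12 of 15 sterol and 7 of 14 fatty acid promoters, against 34.6% of all promoters. A GC box was in 14 of 15 and 11 of 14, against 45.0%, and an E-box was in 5 of the 36, against 7.26%. The promoters of 4 genes that were lower together in aggregates are shown 5′ to 3′ in the direction of transcription, with the response element and the CCAAT boxes (ATTGG on the other strand) in capitals. They lie at chr22:41832855-41833154 on the plus strand for SREBF2, chr1:155308616-155308915 on the plus strand for FDPS, chr5:43313363-43313662 on the minus strand for HMGCS1 and chr10:100346983-100347282 on the plus strand for SCD.
SREBF2: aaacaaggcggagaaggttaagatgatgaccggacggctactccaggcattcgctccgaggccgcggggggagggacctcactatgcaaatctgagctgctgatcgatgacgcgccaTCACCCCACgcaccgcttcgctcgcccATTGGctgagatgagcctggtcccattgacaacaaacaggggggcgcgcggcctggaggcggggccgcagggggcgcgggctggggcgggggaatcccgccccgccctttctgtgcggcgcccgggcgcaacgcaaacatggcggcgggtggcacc
FDPS: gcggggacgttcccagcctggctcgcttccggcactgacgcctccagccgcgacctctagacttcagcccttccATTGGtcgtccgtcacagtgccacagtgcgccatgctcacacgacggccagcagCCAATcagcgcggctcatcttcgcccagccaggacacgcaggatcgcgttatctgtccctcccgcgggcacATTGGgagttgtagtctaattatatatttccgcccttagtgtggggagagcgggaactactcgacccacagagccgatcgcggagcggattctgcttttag
HMGCS1: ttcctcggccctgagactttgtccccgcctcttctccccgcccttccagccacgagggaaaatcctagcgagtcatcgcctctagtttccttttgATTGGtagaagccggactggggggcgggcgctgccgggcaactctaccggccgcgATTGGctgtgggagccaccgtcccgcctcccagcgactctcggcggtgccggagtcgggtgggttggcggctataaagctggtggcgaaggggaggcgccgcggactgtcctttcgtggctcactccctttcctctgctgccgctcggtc
SCD: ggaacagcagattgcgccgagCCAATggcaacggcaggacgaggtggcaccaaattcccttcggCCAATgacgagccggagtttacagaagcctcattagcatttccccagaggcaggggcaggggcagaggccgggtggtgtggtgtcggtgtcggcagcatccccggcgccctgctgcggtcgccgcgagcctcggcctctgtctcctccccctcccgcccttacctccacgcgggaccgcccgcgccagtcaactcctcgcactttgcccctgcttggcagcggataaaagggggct
The response element of SREBF2 reads TCACCCCAC and starts 133 bases before the transcription start, upstream of its single CCAAT box. FDPS has 3 CCAAT boxes and HMGCS1 and SCD have 2 each. These are matches of letters and no binding was measured.

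Exposure of monolayers to trastuzumab for 24 h was followed by lower levels of most sterol enzymes, while fatty acid enzymes divided. Of 18 sterol genes, 12 were lower and none was higher, with a median log2 difference of -0.25. Of 15 fatty acid genes, 4 were lower and 2 higher, with a median of -0.10. Over the 40 genes 18 were lower and 3 higher, beside 8.91% of all genes tested lower and 11.3% higher, 20.2% in all. Both groups belong to the same 12 libraries.

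FDPS had the smallest p of the sterol genes, at 217, 213 and 214 CPM in acutely exposed monolayers, against 316, 291 and 316 CPM in untreated monolayers (-0.52 ± 0.047, adjusted p = 1.74e-10). MSMO1, the methylsterol monooxygenase, was at 44.3, 45.7 and 44.8 CPM in acutely exposed monolayers, against 68.01, 61.6 and 59.4 CPM in untreated monolayers (-0.49 ± 0.065, adjusted p = 6.64e-07). SQLE was at 149, 149.8 and 143 CPM in acutely exposed monolayers, against 181, 183 and 194 CPM in untreated monolayers (-0.34 ± 0.048, adjusted p = 1.75e-06). In all 3 genes every exposed library was below every untreated library. The same held for HMGCS1, at 67.6, 75.3 and 73.6 CPM in acutely exposed monolayers, against 87.7, 97.5 and 94.9 CPM in untreated monolayers (-0.37 ± 0.058, adjusted p = 8.46e-06), and for INSIG1, at 42.5, 40.2 and 40.2 CPM in acutely exposed monolayers, against 59.5, 54.5 and 53.5 CPM in untreated monolayers (-0.45 ± 0.073, adjusted p = 2.03e-05). SREBF2 was at 235, 239 and 235 CPM in acutely exposed monolayers, against 243, 240.2 and 269.5 CPM in untreated monolayers and was not called (-0.09 ± 0.055, adjusted p = 0.299). SREBF1 moved the other way, at 525, 556 and 556 CPM in acutely exposed monolayers, against 424, 449 and 495 CPM in untreated monolayers, above all 3 untreated libraries (0.26 ± 0.065, adjusted p = 0.00421). STARD4, picked out after its values were seen, was at 13.1, 12.1 and 12.01 CPM in acutely exposed monolayers, against 22.9, 22.2 and 20.6 CPM in untreated monolayers (-0.82 ± 0.092, adjusted p = 2.11e-08). It had the lowest log2 difference of the 40 genes in this comparison.

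In the fatty acid branch FASN was at 3121, 3108 and 3026 CPM in acutely exposed monolayers, against 2699.7, 2771 and 3180.5 CPM in untreated monolayers, and the groups overlapped (0.10 ± 0.06, adjusted p = 0.274). SCD was lower, at 1448, 1488 and 1418 CPM in acutely exposed monolayers, against 1579.9, 1622 and 1658 CPM in untreated monolayers (-0.16 ± 0.051, adjusted p = 0.0244). ACSL1, a long-chain acyl-CoA synthetase, was at 431, 410.3 and 397 CPM in acutely exposed monolayers, against 547, 511 and 524 CPM in untreated monolayers (-0.35 ± 0.051, adjusted p = 2.4e-06), below every untreated library. GPAM was at 47.3, 48 and 45.04 CPM in acutely exposed monolayers, against 60.4, 59.4 and 56.2 CPM in untreated monolayers (-0.33 ± 0.068, adjusted p = 0.00053). The 2 genes called higher both attach an acid to coenzyme A, as does ACSL1, which was lower. ACSL3 was at 159, 167 and 168 CPM in acutely exposed monolayers, against 139, 129.9 and 130.3 CPM in untreated monolayers (0.31 ± 0.048, adjusted p = 6.16e-06) and ACSS2 at 196, 198 and 192 CPM in acutely exposed monolayers, against 156, 151 and 152 CPM in untreated monolayers (0.35 ± 0.057, adjusted p = 1.64e-05), both above every untreated library. These 2 comparisons share the untreated monolayers. The SCD call was lost without acutely exposed monolayer 1 or 3 or untreated monolayer 2 or 3, at -0.14 to -0.16. When the 6 libraries with MYH7 were left out, 1 library per group remained, the spread came from the other groups, and 5 of the 40 genes were lower and 1 higher.

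Of 10 lipid storage genes, 5 were higher and none lower after acute exposure, beside 11.3% of all genes higher and 8.91% lower. Among the 5 were HILPDA (0.86 ± 0.1) and the triglyceride lipase PNPLA2 (0.44 ± 0.078). Of the 10 lipogenic feeder genes, 5 were lower and none higher, among them IDH1 (-0.42 ± 0.051) and THRSP, a nuclear protein of lipogenic tissues (-1.17 ± 0.18). In the list of LXR targets and sterol handling, 2 were higher, ABCG1 (1.14 ± 0.095, adjusted p = 2.33e-11) and MYLIP (0.33 ± 0.056, adjusted p = 2.81e-05), and 5 were lower.

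In monolayers left for 96 h after the same exposure the sterol branch was divided. Of 18 sterol genes, 7 were higher and 6 lower than in untreated monolayers, and of 15 fatty acid genes, 6 were higher and 7 lower. The share of genes called, 29 of 40, was close to the 65.3% of all genes called (33.7% higher and 31.6% lower). Primed monolayers belong to the 9 libraries and untreated monolayers to the 12. Primed monolayers also had 96 h of further culture that untreated monolayers did not have, so that exposure, culture time and library set cannot be told apart here. The mitochondrial rRNA share was 0.793 to 0.812% in primed monolayers, against 0.925 to 1.14% in untreated monolayers, and its part was not tested. The median log2 difference was 0.10 in the sterol branch and -0.12 in the fatty acid branch.

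Among the sterol genes, HMGCS1 was at 113, 113 and 119 CPM in primed monolayers, against 87.7, 97.5 and 94.9 CPM in untreated monolayers (0.30 ± 0.057, adjusted p = 2.47e-05), above all untreated libraries. SC5D was at 36.7, 38.3 and 41.9 CPM in primed monolayers, against 71.3, 70.5 and 69.4 CPM in untreated monolayers (-0.85 ± 0.077, adjusted p = 1.07e-11) and IDI1 at 47.7, 54.5 and 59.6 CPM in primed monolayers, against 81.6, 75.7 and 74.9 CPM in untreated monolayers (-0.52 ± 0.08, adjusted p = 9.6e-07), both below all untreated libraries. FDPS was at 269, 266 and 256 CPM in primed monolayers, against 316, 291 and 316 CPM in untreated monolayers (-0.22 ± 0.047). MSMO1 was at 48.6, 52.8 and 57.5 CPM in primed monolayers, against 68.01, 61.6 and 59.4 CPM in untreated monolayers (-0.25 ± 0.066). TM7SF2, a sterol reductase, was at 39.4, 39.8 and 32.1 CPM in primed monolayers, against 56.8, 48.9 and 54.6 CPM in untreated monolayers (-0.53 ± 0.11), and HSD17B7, a ketoreductase of the pathway, at 14.5, 11.4 and 15.1 CPM in primed monolayers, against 20.4, 18.8 and 19.2 CPM in untreated monolayers (-0.51 ± 0.1, adjusted p = 5.42e-05). These 4 genes were called lower with groups that did not overlap. SQLE was at 203, 197 and 203 CPM in primed monolayers, against 181, 183 and 194 CPM in untreated monolayers (0.11 ± 0.048, adjusted p = 0.042). Its call was lost without any 1 of the primed libraries or of untreated monolayers 1 and 2 (0.09 to 0.12). ACAT2 was at 39.04, 41.5 and 41.7 CPM in primed monolayers, against 41.3, 41.1 and 41.8 CPM in untreated monolayers and was not called (-0.02 ± 0.088), while TCP1 differed by -0.85 ± 0.046.

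Fatty acid enzymes of primed monolayers moved in both directions. ELOVL6, which extends palmitate to stearate, was at 67.2, 62.3 and 70.1 CPM in primed monolayers, against 25.05, 23.4 and 22.9 CPM in untreated monolayers (1.49 ± 0.088, adjusted p = 2.44e-16). ACLY, which makes cytosolic acetyl-CoA from citrate, was at 982, 1014 and 973 CPM in primed monolayers, against 797, 761 and 847 CPM in untreated monolayers (0.30 ± 0.053, adjusted p = 6.09e-06). The elongase ELOVL1 was at 156, 144 and 142 CPM in primed monolayers, against 104, 103 and 108 CPM in untreated monolayers (0.49 ± 0.052, adjusted p = 4.52e-10). Both genes of acetyl-CoA carboxylase, the first committed step, were also higher. ACACA was at 16.03, 18.9 and 19.7 CPM in primed monolayers, against 13.9, 15.8 and 14.6 CPM in untreated monolayers (0.30 ± 0.1), a call lost without primed monolayer 3 (0.24). ACACB was at 16.6, 16.6 and 16.3 CPM in primed monolayers, against 10.5, 11.9 and 13.2 CPM in untreated monolayers (0.47 ± 0.11), and ACSL3 was at 152, 154 and 160.3 CPM in primed monolayers, against 139, 129.9 and 130.3 CPM in untreated monolayers (0.23 ± 0.048). In all 6 genes the primed libraries were above the untreated ones.

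SCD, ACSL1 and GPAM, which makes lysophosphatidate from glycerol phosphate, were lower. SCD was at 968, 1005 and 1052 CPM in primed monolayers, against 1579.9, 1622 and 1658 CPM in untreated monolayers (-0.68 ± 0.052, adjusted p = 1.1e-13). ACSL1 was at 289, 292 and 291 CPM in primed monolayers, against 547, 511 and 524 CPM in untreated monolayers (-0.86 ± 0.051, adjusted p = 2.99e-16). GPAM was at 26.8, 30.1 and 33.6 CPM in primed monolayers, against 60.4, 59.4 and 56.2 CPM in untreated monolayers (-0.96 ± 0.073, adjusted p = 1.31e-13). In these genes every primed library was below every untreated one. FASN was at 2714, 2802 and 2441 CPM in primed monolayers, against 2699.7, 2771 and 3180.5 CPM in untreated monolayers and was not called (-0.12 ± 0.06, adjusted p = 0.0752). SREBF1 was higher, at 574, 570.4 and 513 CPM in primed monolayers, against 424, 449 and 495 CPM in untreated monolayers (0.28 ± 0.066, adjusted p = 0.00048), while SREBF2 (0.01 ± 0.055) and INSIG1 (0.00 ± 0.073) were not called, at 259, 250.1 and 250.5 CPM in primed monolayers and 52.9, 60.3 and 54.1 CPM in primed monolayers. STARD4 was at 10.5, 8.88 and 10.4 CPM in primed monolayers, against 22.9, 22.2 and 20.6 CPM in untreated monolayers (-1.14 ± 0.099, adjusted p = 3.43e-12). Of 10 lipid storage genes, 8 were higher and none lower, and of 10 lipogenic feeder genes, 2 were higher and 7 lower. Both counts stood beside 33.7% of all genes higher and 31.6% lower.

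**Figure D4:**
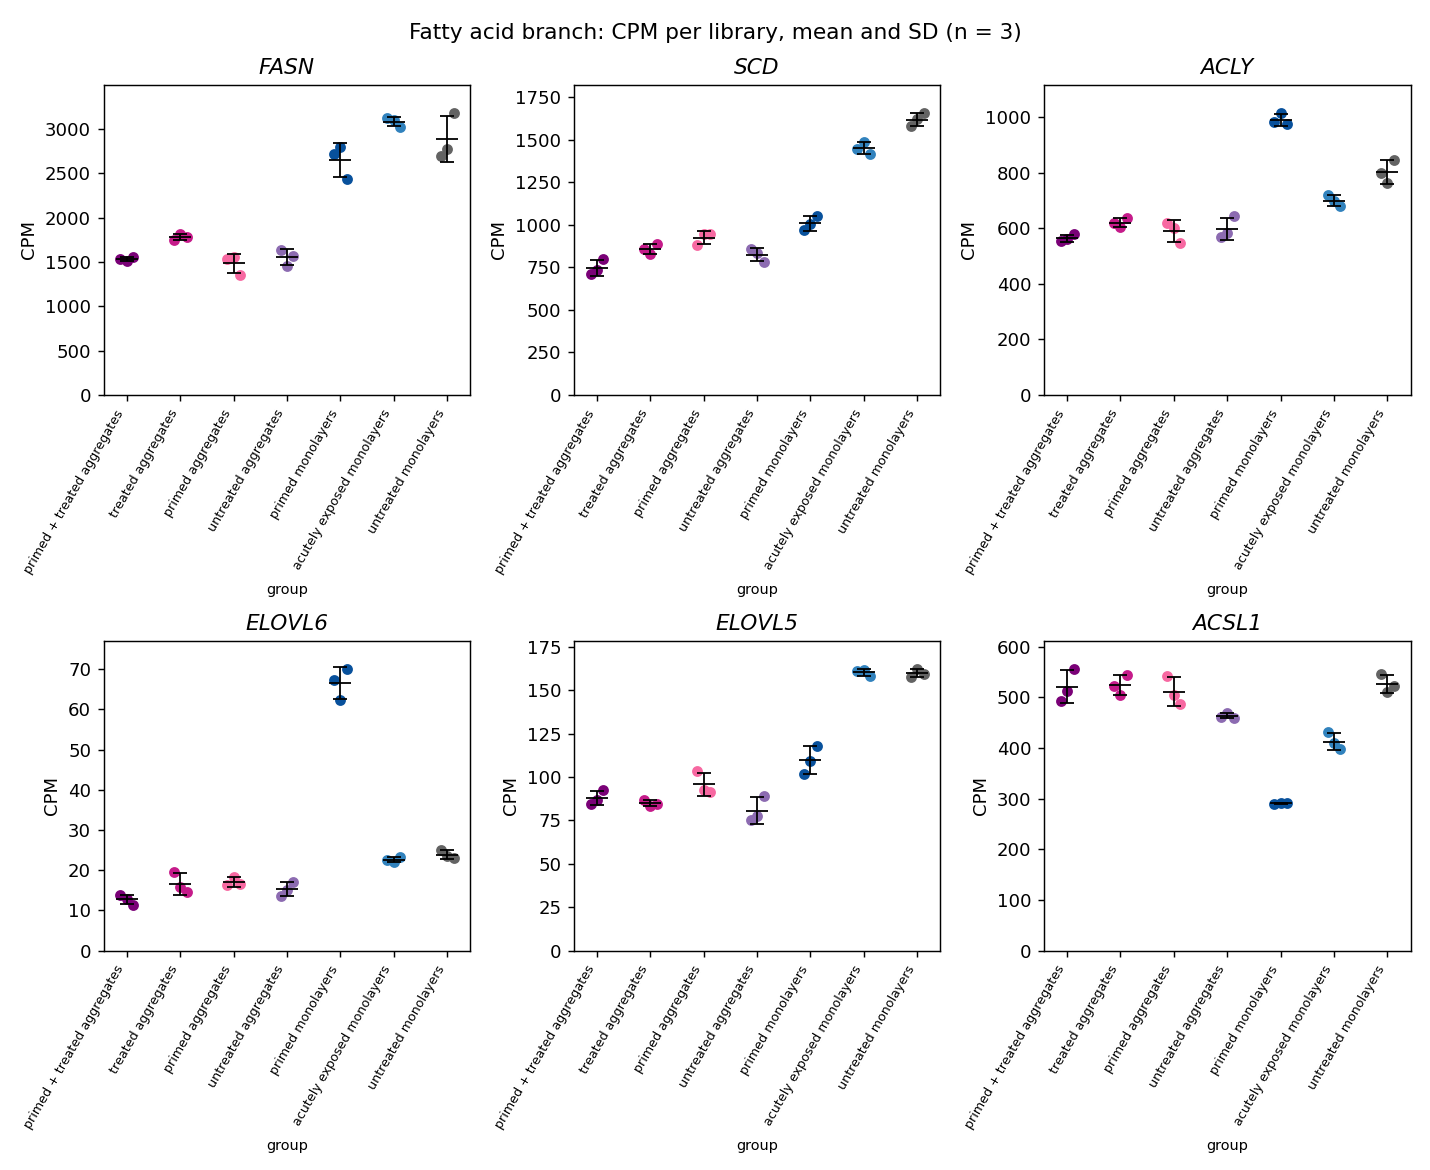
Levels in CPM of FASN, SCD, ACLY, ELOVL6, ELOVL5 and ACSL1 in the 21 libraries, with 1 point per library and the mean and SD of each group (n = 3), untreated monolayers at the right. ELOVL6 stands at 62.3 to 70.1 CPM in primed monolayers and at or below 25.05 CPM in all other libraries.

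Priming before aggregation went with small differences, except in FADS1 and FADS2, which were at low levels. Between primed and untreated aggregates FADS1 differed by 1.46 ± 0.32, adjusted p = 0.00112. FADS2 differed by 0.81 ± 0.29, adjusted p = 0.0485, with groups that overlapped. Compared with untreated aggregates, primed aggregates had 9 of 40 genes higher and none lower, beside 21.2% of all genes called, 11.5% higher and 9.66% lower, so that the share called was near the background. Of 18 sterol genes, 1 was higher, with a branch median of -0.09, and of 15 fatty acid genes, 6 were higher, with a median of 0.10. SREBF2 was at 218, 239 and 220.2 CPM in primed aggregates, against 206, 199 and 181 CPM in untreated aggregates (0.21 ± 0.056, adjusted p = 0.00673). SCD was at 883, 946 and 948 CPM in primed aggregates, against 858, 833 and 782 CPM in untreated aggregates (0.17 ± 0.052, adjusted p = 0.0177). ELOVL5 was at 103, 92.7 and 91.4 CPM in primed aggregates, against 75.3, 77.5 and 89.4 CPM in untreated aggregates (0.25 ± 0.062, adjusted p = 0.0035). In each of the 3 the primed libraries were all above the untreated ones. ACSL3 was at 188, 200.2 and 196 CPM in primed aggregates, against 165, 170.3 and 171 CPM in untreated aggregates (0.21 ± 0.048, adjusted p = 0.00172), HSD17B7 at 12.8, 11.6 and 11.9 CPM in primed aggregates, against 10.05, 10.3 and 8.98 CPM in untreated aggregates (0.30 ± 0.11, adjusted p = 0.0465), and NPC1 differed by 0.34 ± 0.054, adjusted p = 1.4e-05. The summed level of 8 melanocyte markers was 61.6 to 102 CPM in primed aggregates, against 24.3 to 32.0 CPM in untreated aggregates, and its part in these differences was not tested. SREBF1 at 435, 509 and 488 CPM in primed aggregates, INSIG1 at 52.3, 49.4 and 56.7 CPM in primed aggregates, FASN at 1535, 1557 and 1356 CPM in primed aggregates and SQLE at 127, 131 and 137 CPM in primed aggregates overlapped untreated aggregates, and none was called.

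These counts leaned on single libraries. Without primed aggregate 2 the count was 4, and without untreated aggregate 3 it was 4 higher and 1 lower. SREBF2 (0.16 and 0.15) and SCD (0.15 and 0.13) were not called without either of these libraries, and SCD was also not called without primed aggregate 3 (0.14). HSD17B7 was not called without any single library of the 2 groups (0.24 to 0.34). PLIN2 (-1.30 ± 0.13, adjusted p = 9.21e-09) and HILPDA (-0.61 ± 0.097, adjusted p = 0.000177) were lower among the lipid storage genes. There 2 of 10 were higher and 4 lower, beside 11.5% of all genes higher and 9.66% lower.

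The effect of priming in aggregates and that of acute exposure in monolayers were set against each other gene by gene. The effect of priming in aggregates minus the effect of acute exposure in monolayers was called for 19 of 40 genes, 18 of them positive, beside 15.1% of all genes called, 6.85% positive and 8.25% negative. They were 8 sterol genes, 7 fatty acid genes, 2 regulators and both transport genes. For MSMO1 the difference was 0.57 ± 0.094, adjusted p = 5.84e-05, for FDPS 0.41 ± 0.068, adjusted p = 5.27e-05, for SQLE 0.35 ± 0.068, adjusted p = 0.000505 and for HSD17B7 0.56 ± 0.15, adjusted p = 0.0078. INSIG1 differed by 0.51 ± 0.1, SREBF2 by 0.29 ± 0.079 and STARD4 by 0.93 ± 0.13. In the fatty acid branch the differences were 0.49 ± 0.072 for ACSL1, 0.33 ± 0.073 for SCD, 0.34 ± 0.1 for GPAM and 1.88 ± 0.44 for FADS1, and ACSS2 was the only negative one at -0.25 ± 0.081. The call of ACSS2 was lost without any of 7 single libraries (primed aggregates 2 and 3, untreated aggregates 1 and 2, acutely exposed monolayers 1 and 2, untreated monolayer 2), at -0.21 to -0.25. That of GPAM was lost without primed aggregate 3, untreated aggregate 1, acutely exposed monolayer 3 or untreated monolayer 1, at 0.30 to 0.32. For SREBF1 (-0.15 ± 0.093) and FASN (-0.16 ± 0.085) no difference was called. The exposures were not matched, since monolayers were harvested at 24 h of antibody and primed aggregates 96 h after it. Without the 6 libraries with MYH7, 4 genes were called.

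Aggregates given trastuzumab at 50 µg/ml for 24 h had more SREBF1 and less of some sterol enzymes than untreated aggregates. Of 18 sterol genes, 6 were lower and 1 higher, and of 15 fatty acid genes, 5 were higher and 2 lower, with medians of -0.10 and 0.08. The 16 calls among 40 genes stood beside 36.7% of all genes called (18.8% higher and 17.9% lower), a share near the background. Treated aggregates belong to the 9 libraries and untreated aggregates to the 12. Treated aggregates were also 24 h older at harvest, so that exposure, age and library set cannot be told apart here. The mitochondrial rRNA share was 1.52 to 1.71% in treated aggregates, against 2.5 to 2.75% in untreated aggregates, and its part in the result was not tested. SREBF1 was at 590.05, 612 and 610.3 CPM in treated aggregates, against 494, 435 and 399 CPM in untreated aggregates (0.45 ± 0.065, adjusted p = 2.37e-06), above every untreated aggregate. HMGCS1 was at 58.7, 57.8 and 52.2 CPM in treated aggregates, against 69.5, 73.3 and 75.5 CPM in untreated aggregates (-0.37 ± 0.06, adjusted p = 6.49e-06). MSMO1 was at 36.1, 32.5 and 35.4 CPM in treated aggregates, against 41.2, 41.6 and 45.8 CPM in untreated aggregates (-0.31 ± 0.068, adjusted p = 0.000561). SQLE was at 112, 109 and 109 CPM in treated aggregates, against 130.1, 126 and 137 CPM in untreated aggregates (-0.25 ± 0.049, adjusted p = 9.18e-05), and like the other two it was below every untreated aggregate. NSDHL, which takes part in removing methyl groups from lanosterol, was at 15.95, 16.7 and 14.7 CPM in treated aggregates, against 19.9, 18.2 and 20.1 CPM in untreated aggregates (-0.30 ± 0.086, adjusted p = 0.00661). HSD17B7 went the other way, at 11.5, 12.6 and 12.9 CPM in treated aggregates, against 10.05, 10.3 and 8.98 CPM in untreated aggregates (0.33 ± 0.11, adjusted p = 0.0161).

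In the fatty acid branch, FASN was at 1744, 1811 and 1786 CPM in treated aggregates, against 1633, 1458 and 1567 CPM in untreated aggregates (0.20 ± 0.06, adjusted p = 0.00898) and ACSL1 at 522, 506 and 545 CPM in treated aggregates, against 461, 470.2 and 460.2 CPM in untreated aggregates (0.18 ± 0.051, adjusted p = 0.00591), both above every untreated aggregate. SCD at 859.9, 829.7 and 889 CPM in treated aggregates, SREBF2 at 191, 202 and 199.8 CPM in treated aggregates and INSIG1 at 42.6, 44 and 49.6 CPM in treated aggregates overlapped untreated aggregates and were not called. HSD17B7 was not called without treated aggregate 3 (0.30) or untreated aggregate 3 (0.27), and FASN was not called without untreated aggregate 2 (0.15). Without the 6 libraries with MYH7, which left 1 untreated aggregate, 9 genes were called.

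Aggregates that were both primed and treated had the lowest sterol branch mean of all groups, with every library below those of the other groups. Against untreated aggregates, 10 of 18 sterol genes were lower and 1 higher, and 4 of 15 fatty acid genes were lower and 2 higher. In all 17 of 40 were lower and 5 higher, beside 17.9% of all genes lower and 17.6% higher (35.5% together). The comparison is again between the 9 and the 12 libraries, and primed and treated aggregates were 24 h older at harvest. Their mitochondrial rRNA share was 2.13 to 2.36%, against 2.5 to 2.75% in untreated aggregates, and its part was not tested. SQLE was at 98.7, 102 and 102 CPM in primed and treated aggregates, against 130.1, 126 and 137 CPM in untreated aggregates (-0.38 ± 0.049, adjusted p = 1.94e-07). HMGCS1 was at 54.2, 57.6 and 55.4 CPM in primed and treated aggregates, against 69.5, 73.3 and 75.5 CPM in untreated aggregates (-0.39 ± 0.059, adjusted p = 4.26e-06). DHCR7, the reductase that completes cholesterol, was at 132, 129.6 and 141 CPM in primed and treated aggregates, against 179, 170.1 and 169 CPM in untreated aggregates (-0.36 ± 0.061, adjusted p = 1.55e-05). In these 3 the groups did not overlap. HSD17B7 was higher, at 13.5, 16.9 and 14.9 CPM in primed and treated aggregates, against 10.05, 10.3 and 8.98 CPM in untreated aggregates (0.62 ± 0.11, adjusted p = 1.71e-05).

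Both regulators of the sterol branch named here were lower, SREBF2 at 163, 153 and 176 CPM in primed and treated aggregates, against 206, 199 and 181 CPM in untreated aggregates (-0.25 ± 0.056, adjusted p = 0.000542) and INSIG1 at 36.9, 37.3 and 44.6 CPM in primed and treated aggregates, against 51.2, 50.8 and 49.2 CPM in untreated aggregates (-0.34 ± 0.074, adjusted p = 0.000385). SREBF1 was higher, at 585, 559 and 554 CPM in primed and treated aggregates, against 494, 435 and 399 CPM in untreated aggregates (0.35 ± 0.065, adjusted p = 7.57e-05). SCD was at 708, 732 and 799 CPM in primed and treated aggregates, against 858, 833 and 782 CPM in untreated aggregates and was called lower although the groups overlapped (-0.14 ± 0.051, adjusted p = 0.0286). FASN at 1534, 1514 and 1559.7 CPM in primed and treated aggregates was not called (-0.02 ± 0.06). LPIN1, a phosphatidate phosphatase, was at 57.5, 55 and 62.8 CPM in primed and treated aggregates, against 50.3, 48.5 and 53.04 CPM in untreated aggregates (0.21 ± 0.062, adjusted p = 0.00841), and ACSL1 was at 493, 514 and 557 CPM in primed and treated aggregates, against 461, 470.2 and 460.2 CPM in untreated aggregates (0.17 ± 0.051, adjusted p = 0.00929), both higher. Without primed and treated aggregate 3 neither was called (0.15 and 0.11), nor was LPIN1 without untreated aggregate 2 (0.17). SCD was not called without primed and treated aggregate 1 or 2 or untreated aggregate 1 or 2, at -0.11 to -0.14.

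Primed and treated aggregates and treated aggregates both belong to the 9 libraries. The share of counts in mitochondrial rRNA was 2.13 to 2.36% in primed and treated aggregates, against 1.52 to 1.71% in treated aggregates, without overlap, and its part in the result was not tested. In primed and treated aggregates 7 of 40 genes were lower than in treated aggregates and none was higher, beside 4.8% of all genes lower, 3.18% higher and 7.98% called. They were SREBF2, STARD4, 2 sterol genes and 3 fatty acid genes, with branch medians of -0.09 and -0.14. DHCR7 was at 132, 129.6 and 141 CPM in primed and treated aggregates, against 158, 168 and 181 CPM in treated aggregates (-0.33 ± 0.06, adjusted p = 0.000314). FDPS was at 101, 103 and 106 CPM in primed and treated aggregates, against 119, 121 and 129.6 CPM in treated aggregates (-0.26 ± 0.049, adjusted p = 0.000528). SREBF2 was at 163, 153 and 176 CPM in primed and treated aggregates, against 191, 202 and 199.8 CPM in treated aggregates (-0.27 ± 0.056, adjusted p = 0.00147). In these genes every primed and treated library was below every treated one. ELOVL6 was at 13.8, 12.9 and 11.4 CPM in primed and treated aggregates, against 19.7, 15.8 and 14.5 CPM in treated aggregates (-0.39 ± 0.099, adjusted p = 0.00942). SCD was at 708, 732 and 799 CPM in primed and treated aggregates, against 859.9, 829.7 and 889 CPM in treated aggregates (-0.20 ± 0.051, adjusted p = 0.00918), and FASN was at 1534, 1514 and 1559.7 CPM in primed and treated aggregates, against 1744, 1811 and 1786 CPM in treated aggregates (-0.21 ± 0.06, adjusted p = 0.0209). STARD4 was at 11.98, 11.3 and 14.1 CPM in primed and treated aggregates, against 16.5, 16.04 and 15.8 CPM in treated aggregates (-0.37 ± 0.092, adjusted p = 0.00881). These 4 did not overlap either. SREBF1 (-0.09 ± 0.065, adjusted p = 0.451), INSIG1 (-0.19 ± 0.073, adjusted p = 0.101) and SQLE (-0.12 ± 0.049, adjusted p = 0.122) were not called.

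The count was 4 without primed and treated aggregate 2, and 12, 11 lower and 1 higher, when only these 2 groups were fitted. FASN was not called without primed and treated aggregate 1 or 2 or treated aggregate 2 or 3 (-0.20 to -0.21), and SCD was not called without primed and treated aggregate 1 or 2 or treated aggregate 3 (-0.16 to -0.19). ELOVL6 was not called without primed and treated aggregate 3 (-0.31) or treated aggregate 1 (-0.25). Among LXR targets and sterol handling, 3 of 10 were higher and none lower, beside 3.18% of all genes higher and 4.8% lower. The smallest p were those of MYLIP, a ligase that degrades lipoprotein receptors (0.42 ± 0.054, adjusted p = 2.02e-06), and SOAT1 (0.36 ± 0.071, adjusted p = 0.000924).

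Whether priming acted differently with and without the later dose was tested as a difference between the 2 effects. The effect of priming in treated aggregates minus that in untreated aggregates was called for 8 of 40 genes, all negative, beside 12.5% of all genes called, 7.42% negative and 5.05% positive. They were SREBF2 (-0.48 ± 0.079, adjusted p = 5.81e-05), SCD (-0.37 ± 0.073, adjusted p = 0.000543), ELOVL6 (-0.55 ± 0.14, adjusted p = 0.00768), TM7SF2 (-0.51 ± 0.15, adjusted p = 0.0295), STARD4 (-0.48 ± 0.13, adjusted p = 0.0115), NPC1 (-0.32 ± 0.075, adjusted p = 0.00351), FADS1 (-2.18 ± 0.6) and FADS2 (-1.98 ± 0.5). The TM7SF2 call was lost without any single library except primed aggregate 1, untreated aggregate 1 and treated aggregate 3, at -0.42 to -0.53. ELOVL6 was not called without treated aggregate 1 (-0.41), and FADS1 not without primed and treated aggregate 1 (-1.84) or treated aggregate 3 (-1.82). The arm with the later dose lies within the 9 libraries and the arm without it within the 12, and in each arm a measure of library content moved with priming. The mitochondrial rRNA share was higher in primed and treated than in treated aggregates, and the melanocyte sum was higher in primed than in untreated aggregates, as given with each comparison. Their part in the difference was not tested. SQLE (-0.13 ± 0.069), INSIG1 (-0.26 ± 0.1), SREBF1 (-0.20 ± 0.092) and FASN (-0.15 ± 0.085) were not called.

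Set against primed aggregates, which lie in the other set of libraries, primed and treated aggregates had 16 of 40 genes lower and 3 higher, beside 14.8% of all genes lower and 14.9% higher (29.8% in all). Among the lower were 8 sterol and 5 fatty acid genes. Primed and treated aggregates were also 24 h older at harvest. Their mitochondrial rRNA share was 2.13 to 2.36%, against 2.62 to 2.77% in primed aggregates, and its part was not tested. SREBF2 was at 163, 153 and 176 CPM in primed and treated aggregates, against 218, 239 and 220.2 CPM in primed aggregates (-0.46 ± 0.056, adjusted p = 9.88e-08), and INSIG1 at 36.9, 37.3 and 44.6 CPM in primed and treated aggregates, against 52.3, 49.4 and 56.7 CPM in primed aggregates (-0.41 ± 0.073, adjusted p = 4.91e-05). SQLE (-0.38 ± 0.049, adjusted p = 2.21e-07), SCD (-0.31 ± 0.051, adjusted p = 1.85e-05), ELOVL6 (-0.43 ± 0.1, adjusted p = 0.00131) and HMGCS1 (-0.30 ± 0.059, adjusted p = 0.000232) were also lower. MSMO1 was at 33.8, 33.9 and 34.2 CPM in primed and treated aggregates, against 46.5, 43.6 and 45.7 CPM in primed aggregates (-0.41 ± 0.067, adjusted p = 1.45e-05), CYP51A1, the lanosterol demethylase, at 138, 144 and 147 CPM in primed and treated aggregates, against 179.8, 159 and 168 CPM in primed aggregates (-0.24 ± 0.051, adjusted p = 0.000445). SREBF1 (0.25 ± 0.065, adjusted p = 0.00439), HSD17B7 (0.32 ± 0.1, adjusted p = 0.0162) and LPIN1 (0.17 ± 0.062, adjusted p = 0.0372) were higher, and FASN was not called (0.05 ± 0.06). The LPIN1 call was lost without primed aggregate 2 or 3 or primed and treated aggregate 1 or 3 (0.11 to 0.18), and that of HSD17B7 without primed aggregate 2 or 3 or primed and treated aggregate 2 (0.23 to 0.31).

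Exposed aggregates were also set beside exposed monolayers. Within the 9 libraries, primed and treated aggregates had 26 of 40 genes lower and 6 higher than primed monolayers. Beside this, 32.1% of all genes were lower and 31.9% higher (63.9% in all). These aggregates also had 50 µg/ml for a further 24 h, which primed monolayers did not have. Culture form, second dose and culture time cannot be told apart here. The mitochondrial rRNA share was 2.13 to 2.36% in primed and treated aggregates, against 0.793 to 0.812% in primed monolayers. FGB was at 141 to 153 CPM, against 4.11 to 5.17 CPM, and the part of either was not tested. Of the sterol genes, 14 were lower and 1 higher, with a median of -0.78. ACAT2 differed by -2.59 ± 0.1, adjusted p = 2.18e-21, FDPS by -1.36 ± 0.049, adjusted p = 1.3e-22, SQLE by -0.99 ± 0.049, adjusted p = 7.02e-19 and HMGCS1 by -1.05 ± 0.059, adjusted p = 3.06e-17, while TCP1 beside ACAT2 differed by -0.43 ± 0.046. PMVK again went the other way, at 65.6, 62.2 and 59.3 CPM in primed and treated aggregates, against 57.1, 51.5 and 43.4 CPM in primed monolayers (0.30 ± 0.085, adjusted p = 0.00309). Of the fatty acid genes, 9 were lower and 4 higher, with a median of -0.43. ELOVL6 differed by -2.39 ± 0.093, adjusted p = 1.25e-21, ACLY by -0.81 ± 0.053, adjusted p = 2.12e-15, FASN by -0.79 ± 0.06, adjusted p = 1.19e-13 and SCD by -0.43 ± 0.052, adjusted p = 4.75e-09. ACSL1 (0.84 ± 0.051, adjusted p = 3.04e-16), ACSS2 (0.51 ± 0.058, adjusted p = 1.82e-09), GPAM (0.25 ± 0.074) and ACSL3 (0.15 ± 0.048) were higher, GPAM not without primed monolayer 1 (0.17). SREBF2 differed by -0.63 ± 0.056 and INSIG1 by -0.49 ± 0.074, both lower, and SREBF1 was not called (0.04 ± 0.065).

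Within the 12 libraries, primed aggregates had 24 of 40 genes lower and 8 higher than acutely exposed monolayers. Of all genes, 28.6% were lower and 30.4% higher (59% in all). Primed aggregates also had 96 h of culture after the exposure, which acutely exposed monolayers did not have. Culture form and time since exposure cannot be told apart here. The mitochondrial rRNA share was 2.62 to 2.77% in primed aggregates, against 0.903 to 0.951% in acutely exposed monolayers, and its part in the result was not tested. The sterol median was -0.35, with 12 lower and 2 higher, and the fatty acid median was -0.39, with 10 lower and 4 higher. ACAT2 (-1.88 ± 0.1), FDPS (-0.93 ± 0.049), IDI1 (-0.81 ± 0.083) and SC5D (-0.61 ± 0.077) were lower, and so were FASN (-1.06 ± 0.06), ELOVL5 (-0.74 ± 0.06), SCD (-0.65 ± 0.052) and LPIN1 (-0.56 ± 0.062). PMVK (0.31 ± 0.086) and CYP51A1 (0.15 ± 0.051) were the sterol genes that were higher. INSIG1 was higher (0.37 ± 0.074, adjusted p = 6.04e-05), SREBF1 lower (-0.19 ± 0.065, adjusted p = 0.0117) and SREBF2 not called (-0.07 ± 0.055). ACSL1 (0.31 ± 0.051) and ACSL3 (0.24 ± 0.047) were higher in the fatty acid branch, with FADS1 and FADS2. Without primed aggregate 1 neither CYP51A1 (0.11) nor SREBF1 (-0.13) was called.

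FADS1 and FADS2, the desaturases that make arachidonate and other highly unsaturated fatty acids, stood apart from the rest. FADS1 was at 0.135, 0.378 and 0.442 CPM in primed and treated aggregates, 0.473, 0.367 and 0.769 CPM in treated aggregates, 2.72, 5.57 and 5.34 CPM in primed aggregates, against 2.06, 1.99 and 0.892 CPM in untreated aggregates. In monolayers FADS1 was at 0.411, 0.447 and 0.696 CPM in primed monolayers, 2.25, 1.94 and 2.26 CPM in acutely exposed monolayers, against 2.75, 4.09 and 1.71 CPM in untreated monolayers. FADS2 was at 0.449, 0.546 and 0.663 CPM in primed and treated aggregates, 1.46, 0.825 and 1.49 CPM in treated aggregates, 2.96, 5.95 and 5.92 CPM in primed aggregates, against 2.70, 3.27 and 2.50 CPM in untreated aggregates. In monolayers FADS2 was at 0.479, 0.128 and 0.0632 CPM in primed monolayers, 1.76, 2.27 and 2.22 CPM in acutely exposed monolayers, against 3.93, 3.47 and 1.48 CPM in untreated monolayers. FADS1 was at or below 0.769 CPM in the 9 libraries with little TYRP1 and at or above 0.892 CPM in the other 12. FADS2 was at or below 1.49 CPM in the 9 and at or above 1.48 CPM in the 12. FADS2 differed by -3.14 ± 0.35, adjusted p = 1.01e-07 between primed and treated and primed aggregates, and FADS1 by -3.78 ± 0.39, adjusted p = 1.14e-08. The difference between treated and untreated aggregates was -1.16 ± 0.33 for FADS2 and -1.61 ± 0.4 for FADS1, and that between primed and untreated aggregates was 1.46 ± 0.32, adjusted p = 0.00112 for FADS1. The summed level of 8 melanocyte markers, all in the table, was 6.55 to 7.62 CPM in primed and treated aggregates, 8.25 to 10.1 CPM in treated aggregates, 61.6 to 102 CPM in primed aggregates and 24.3 to 32.0 CPM in untreated aggregates. It was 11.6 to 15 CPM in primed monolayers, 43.6 to 102 CPM in acutely exposed monolayers and 55.5 to 119 CPM in untreated monolayers. Of the 8 markers, TYR was at 0 in all libraries of primed and treated aggregates, TYR and PAX3 in all of treated aggregates, and TYR, PAX3 and GPR143 in all of primed monolayers. Within the 12 libraries, FADS2 was at 2.50 to 3.27 CPM in untreated aggregates and 1.76 to 2.27 CPM in acutely exposed monolayers, whose marker sums were higher. FADS1 was at 0.892 to 2.06 CPM in untreated aggregates and 1.94 to 2.26 CPM in acutely exposed monolayers, with overlap. The part of the melanocyte transcripts in the FADS1 and FADS2 differences was not tested. The 2 genes also overlap each other by 801 bases on chromosome 11, so that their counts may not be separate.

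**Figure D5:**
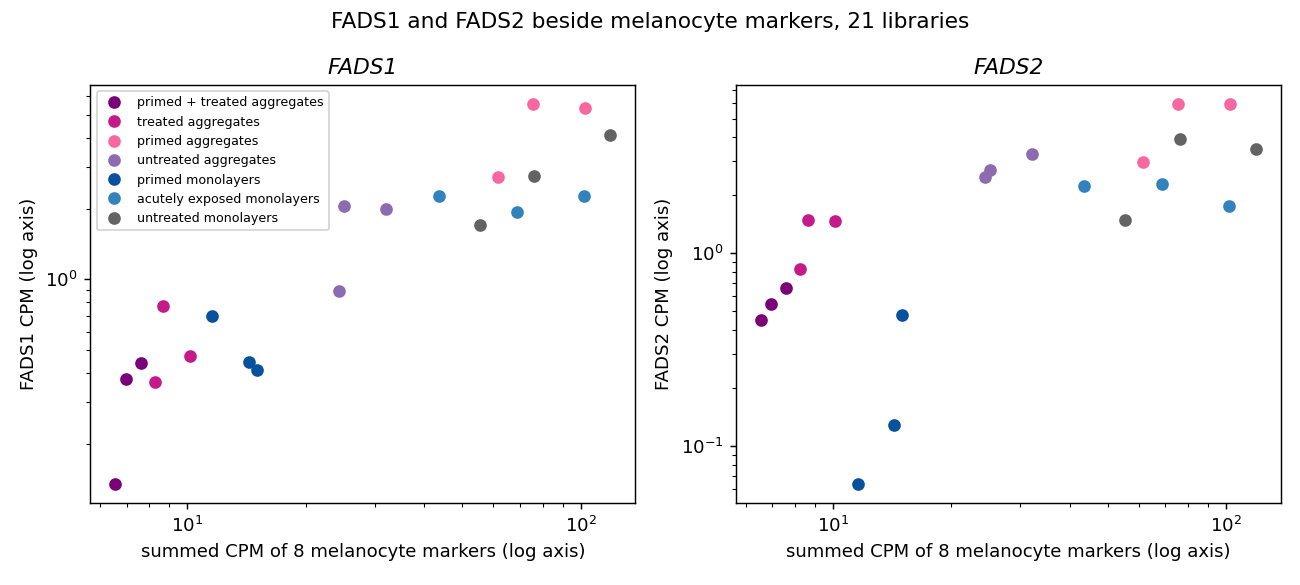
FADS1 and FADS2 in CPM against the summed CPM of 8 melanocyte markers, 1 point per library, with both axes on a log scale and colours giving the 7 groups. The 9 libraries of primed and treated aggregates, treated aggregates and primed monolayers lie at sums of 15 CPM or less and have the lowest FADS1 levels, at most 0.769 CPM.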

How the data were processed

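RNA of 21 AU565 cultures was extracted with TRIzol and made into TruSeq libraries, per the labels' protocols. The deposited table holds raw counts per gene, which the authors made with featureCounts on hg38, per the submitters' processing notes, which also name limma and give no versions. Strand use in counting is not given in the sources used here. Primed-aggregate columns carry a word that those sample titles lack and were matched through the treatment protocol. Of the 16553 genes, 174 had no symbol.

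Counts were tested with edgeR 4.0.16 in R 4.3.3: TMM scaling, filterByExpr by group (584 genes removed, 15969 tested), a single robust quasi-likelihood fit with a mean for each of the 7 groups (leaving 14 degrees of freedom), two-sided tests and Benjamini-Hochberg adjustment over all genes tested, with calls at an adjusted p under 0.05. There were 10 pairwise comparisons and 2 differences of responses. CPM use TMM-scaled library sizes. The steps were tested on simulated counts of only acutely exposed and untreated monolayers, not of all 7 groups. There 80% of 1.5-fold and 86% of 2-fold changes were called, and 7.26% of the calls were false. No gene was called between unchanged groups. Smaller changes were not simulated. Alternatives were DESeq2 1.42.0, limma 3.58.1 with voom, RLE size factors, no filter, only the groups compared, a replicate block, each library left out, and the 6 libraries with MYH7 above 10 CPM left out. A fit of only the groups compared with a replicate block was added after the data were seen.

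The member genes, the further gene lists and the rule for named genes were chosen with earlier results of these data known. The rule gives library values for SREBF1, SREBF2, INSIG1, FASN, SCD and SQLE, for up to 4 called genes per branch with the smallest p in a comparison, and for called genes that go against most of their branch. From a further list at most 2 called genes are named in a comparison.

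Replicate pairs differed by 2.4 to 10.7 times counting variance (chi-squared per degree of freedom), so no library was a repeat of another, and the biological coefficient of variation was 5.98%. Deviations of same-numbered replicates correlated between -0.276 and 0.286. Only untreated aggregates and untreated monolayers had all 3 pairs above 0.1 (0.107, 0.189 and 0.258). Promoters and gene positions come from RefSeq tables of GRCh38.p14.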

Additional observations from a re-analysis of the deposited data

Results flagged for a closer look

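The results below are those where 2 effects differed by a test of the difference itself, on the log2 scale with edgeR.

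The effect of priming in treated aggregates minus that in untreated aggregates differed for 8 of the 40 genes. Among those named it was -0.476 for SREBF2, -0.371 for SCD, -0.508 for TM7SF2, -0.551 for ELOVL6, -1.984 for FADS2 and -2.175 for FADS1.

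The effect of priming in aggregates minus the effect of acute exposure in monolayers differed for 19 of the 40 genes. Among the regulators it was 0.294 for SREBF2 and 0.514 for INSIG1. In the sterol branch it was 0.345 for SQLE, 0.413 for FDPS, 0.565 for MSMO1 and 0.559 for HSD17B7. In the fatty acid branch it was 0.326 for SCD, 0.493 for ACSL1, 1.879 for FADS1, 0.335 for GPAM and -0.254 for ACSS2. The dose was the same in both arms but the time since exposure was not. The summed level of melanocyte markers was also higher in primed than in untreated aggregates (61.6 to 102 CPM against 24.3 to 32.0 CPM), and its part in these differences was not tested.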

How the results depend on the processing

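Counts of members called under DESeq2, limma voom, RLE size factors, no filter and the replicate block were each within 1.5 times the values reported in all 12 comparisons and differences. No named call changed sign under any alternative run, and named genes without a call were not checked for sign. Same-numbered replicates correlated above 0.1 in all 3 pairs only for untreated aggregates against untreated monolayers, which does not establish a pairing. In both groups replicates 1 and 2 held MYH7 above 10 CPM and replicate 3 did not, and its part was not tested. There the replicate block gave 33 members called, as without the block. The replicate block also changed no other count by more than 1.5 times. Of the named genes only HSD17B7 lost a call with it, between primed and untreated aggregates. With only the groups compared, primed and treated against treated aggregates had 12 members called in place of 7, and 16 with the replicate block added. Primed against untreated aggregates had 3 in place of 9 with that block. Without the 6 libraries with MYH7 the count was 6 in place of 21 for acute exposure, 5 in place of 9 for primed aggregates, 9 in place of 16 for treated aggregates and 4 in place of 19 for the priming effect in aggregates minus the acute effect in monolayers. That alternative left 1 library in 3 groups, whose spread was taken from the others, and 37 named calls were lost under it. Among them were SREBF1 (0.09), INSIG1 (-0.33) and SCD (-0.20) after acute exposure, PMVK (0.29) and ACSS2 (0.24) between untreated aggregates and untreated monolayers, and FADS1 (-0.72) and FADS2 (-0.98) in treated aggregates. The cause was not tested.

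With 1 library left out at a time, members called ranged over 31 to 34 for untreated aggregates against monolayers, 18 to 20 for acute exposure, 26 to 29 for primed monolayers, 4 to 8 for primed aggregates, 11 to 15 for treated aggregates and 18 to 21 for primed and treated against untreated aggregates. Primed and treated aggregates gave 4 to 9 against treated, 15 to 19 against primed aggregates and 31 to 32 against primed monolayers, and primed aggregates 27 to 31 against acutely exposed monolayers. The differences of responses gave 6 to 9 and 14 to 19. Counting each named call once for every library left out, the call was kept 857 times and lost 73 times. SQLE in primed monolayers was also not called with DESeq2 or RLE size factors (0.10 in both). FADS1 and FADS2 rest on the fewest counts of the 40 genes, and their differences have standard errors of 0.29 or more in the comparisons reported.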
